A study of Mus musculus with 66 samples.

Results

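The 35 genes described here act in the passage from G1 into DNA replication, most as parts of the machinery and at least 1, Cdkn1b, as a brake. They were chosen by symbol from a list of G1/S and replication genes, and 35 of 35 were found among the 13957 genes of the deposited expression table. Mouse embryonic stem cells of an E14Tg2a derivative (129/Ola), whose nuclear receptors Esrrb and Nr5a2 are destroyed when auxin is added, were measured by RNA-seq as asynchronous cells, as cells arrested in mitosis, and from 20 to 60 minutes after release in steps of 10 minutes, then at 90 and 120 minutes. Each of these 9 stages was sampled without auxin and with auxin, which gives 18 groups of 3 libraries and 54 libraries in all. All groups carry the degradable receptors, and none received auxin without them, so effects of auxin itself and of the loss of each receptor cannot be told apart. The arm was read from the sample titles, because the treatment label reads ctl for all 54 libraries; every difference with auxin therefore rests on the titles. Whether the derivative is a single clone is not stated. Nr5a2 binding was mapped by ChIP-seq in wild-type E14Tg2a cells in interphase and in mitosis, with 3 libraries and 3 inputs each.

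A cell leaving mitosis must license its replication origins before it may fire them. In G1 the origin recognition complex, with Cdc6 and Cdt1, loads the ring of Mcm2 to Mcm7 onto DNA as an inactive helicase. Cyclin D and cyclin E kinases then inactivate the retinoblastoma proteins, which frees E2F factors to induce the genes of S phase, and Cdc45 and the GINS complex turn the loaded rings into moving helicases. Embryonic stem cells are known for a short G1 and for cyclin E activity in most of the cycle.

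RNA levels are in TPM, a read share corrected for the length of the gene, and each group has 1 value, the authors' mean of its 3 libraries. No value therefore has a replicate error, no difference could be set against the spread between replicates, and no p-value is given; the depth per library is unknown. The genes of the deposited table, members and others, summed to 17189 TPM in mitosis, 49059 TPM at 60 min and 40735 TPM at 120 min without auxin, so levels of most genes move together. Differences are on the log2(TPM + 1) scale, where 1 is a 2-fold difference and changes of low genes are understated. Counts of members or genes past a fold use this scale, except where ratios of TPM are named. Counts use genes that reach 1 TPM in any of the 18 groups, which are 8999 genes of the table and 34 of the 35 members; Ccnd2 missed this limit. Ccnd3 passed it through asynchronous cells, and Ccnd1, Ccne2, Cdkn1b and Rrm1 were under 1 TPM in mitosis and passed through other stages. Of the 8 stem cell markers 7 were listed, each reaching 1 TPM, with a summed level of 34.6 to 117 TPM per group; fibroblast markers (2 of 7 listed) summed to at most 0.369 TPM, primitive endoderm markers (3 of 5) to at most 0.527 TPM and trophectoderm markers (3 of 4) to at most 1.36 TPM, of which Eomes reached 1 TPM.

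Without auxin, RNA of the G1/S genes was near its mitotic level for 30 minutes and several times higher by 50 to 60 minutes. The median difference from mitosis over the 34 members at the 7 release times, from 20 to 120 minutes, was 0.19, 0.14, 0.60, 1.56, 1.91, 1.69 and 1.20. Over all 8999 genes the same medians were 0.04, -0.01, 0.14, 0.67, 1.01, 0.95 and 0.81. On the log2(TPM + 1) scale no member (0 of 34) stood at least 2-fold above mitosis at 20 minutes (0.0111% of all genes) or at 30 minutes (0.1%). Slbp, with the largest difference at 20 minutes (0.74), was about 2-fold up there in plain TPM. At 40 minutes 12 of 34 members stood at least 2-fold above mitosis, against 5.73% of all genes. At 50 minutes it was 26 of 34 (30.6% of all genes), at 60 minutes 29 of 34 (50.8%), at 90 minutes 28 of 34 (44.9%) and at 120 minutes 23 of 34 (33.1%). With auxin the counts from 40 minutes on were 11 (6.01% of all genes), 26 (30.5%), 29 (46.8%), 30 (46.7%) and 23 (34.9%).

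The size of these counts rests on the scale. With each group centred on its median over all genes, 11 of 34 members were 2-fold above mitosis at 60 minutes, against 4.84% of all genes, and the member median was 0.81. On that scale 6 members (Ccnd3, E2f2, Mcm3, Mybl2, Pola1 and Prim1) were below mitosis at 60 minutes, and quantile normalization put Chaf1a and E2f1 below it as well. With a pseudocount of 0.1 the count at 60 minutes was 30 of 34, against 71.6% of all genes.

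**Figure D1:**
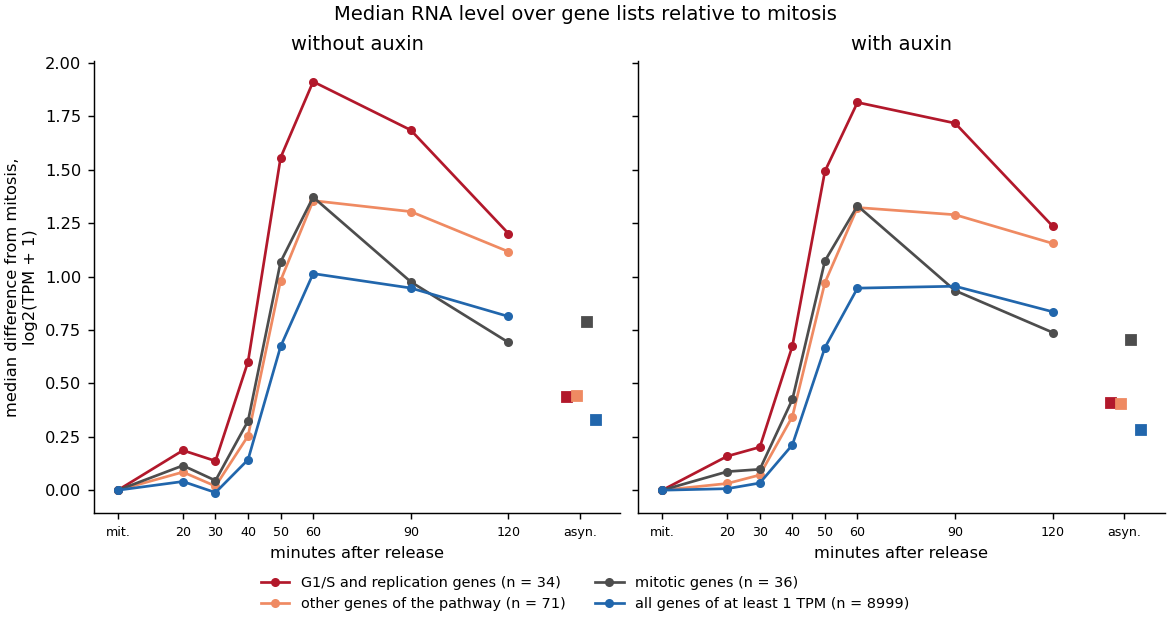
Median difference from mitosis of the same arm, in log2(TPM + 1), over the G1/S and replication genes, the other listed genes of the pathway, mitotic genes and all genes of at least 1 TPM, by minutes after release; squares are asynchronous cells. The G1/S median reaches 1.91 at 60 minutes without auxin, where the median of all genes is 1.01.

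**Figure D2:**
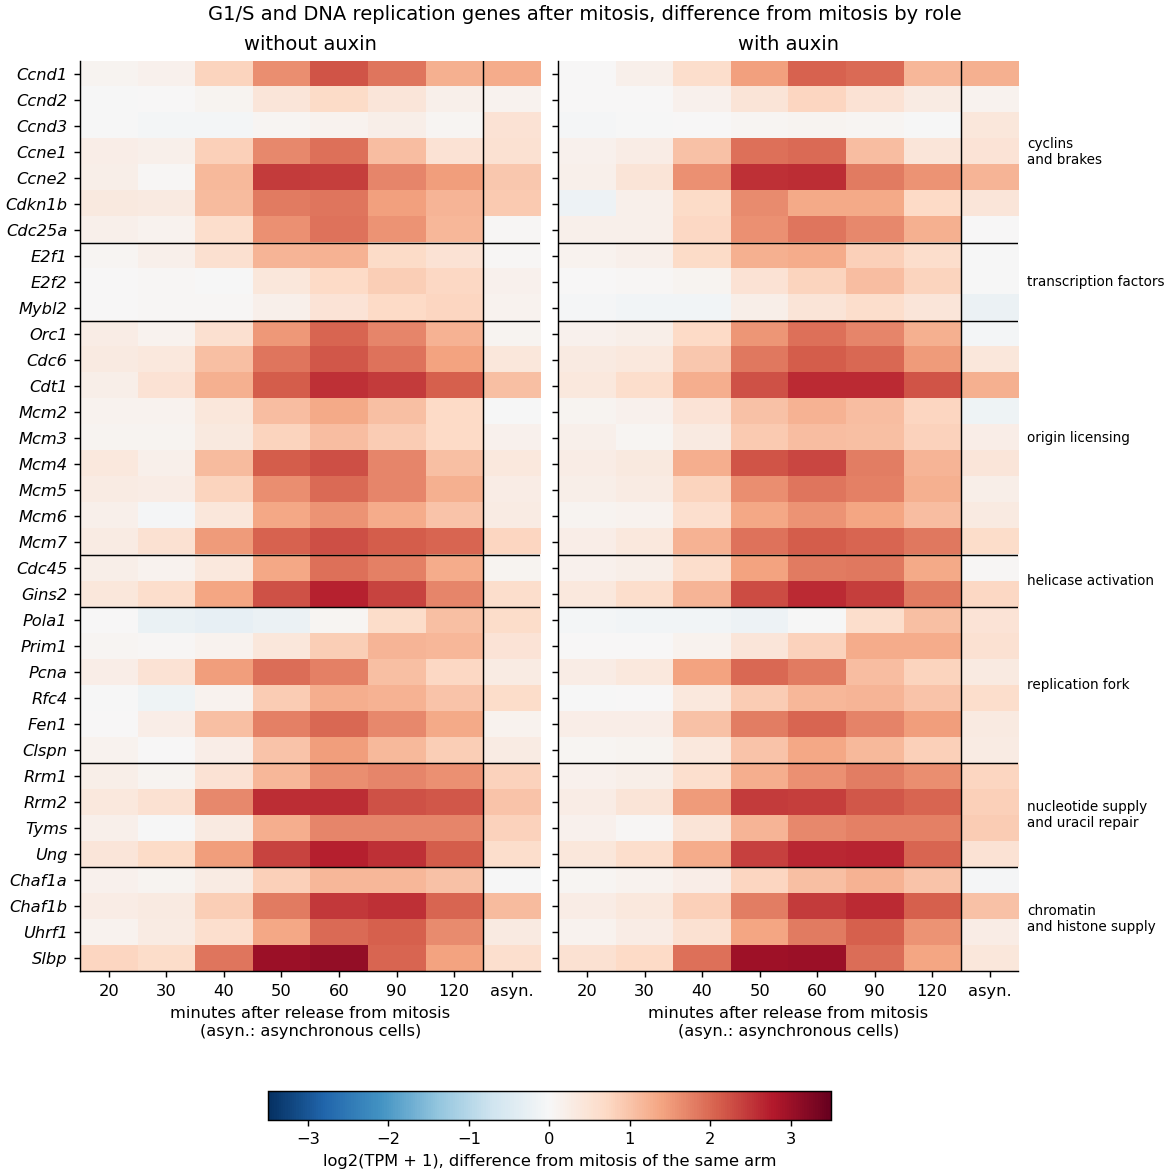
Difference from mitosis of the same arm in log2(TPM + 1) for each of the 35 members (rows, grouped by role) at each time after release and in asynchronous cells (columns), without auxin on the left and with auxin on the right. Colour turns red between 40 and 50 minutes for most rows, while Ccnd2, Ccnd3, Pola1, E2f2 and Mybl2 stay pale.

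The cyclins that start the programme differed within each family. Cyclin D1, the growth-factor responsive partner of Cdk4 and Cdk6, was the highest D-type cyclin. Ccnd1 stood at 0.607 TPM in mitosis and at 0.732, 0.769, 1.76, 4.01, 6.42, 4.86 and 2.84 TPM at the 7 release times without auxin, with 2.95 TPM in asynchronous cells. Ccnd2 followed the same course at a lower level, with 0.0682 TPM in mitosis, 0.0642, 0.0841, 0.151, 0.443, 0.708, 0.435 and 0.212 TPM after release and 0.168 TPM in asynchronous cells. Ccnd3 did not: it stood at 0.529 TPM in mitosis and at 0.511, 0.448, 0.470, 0.596, 0.665, 0.765 and 0.591 TPM after release, below its asynchronous 1.15 TPM at all 7 times.

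Cyclins E1 and E2 activate Cdk2 at the entry into S phase. Ccne1 stood at 4.20 TPM in mitosis, at 5.07, 4.87, 8.19, 15.8, 18.8, 9.93 and 6.37 TPM after release and at 6.59 TPM in asynchronous cells. Ccne2 stood at 0.663 TPM in mitosis, at 0.901, 0.720, 2.68, 8.05, 7.96, 4.49 and 3.59 TPM after release and at 2.21 TPM in asynchronous cells. Both were highest at 50 to 60 minutes, and at 120 minutes Ccne1 was back below its asynchronous level whereas Ccne2 was still above it. The 60 minute level was 12 times the mitotic level for Ccne2 and 4.47 times for Ccne1.

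Cdkn1b, which encodes the cyclin kinase inhibitor p27, was listed at 0 TPM in mitosis without auxin and at 0.249 TPM with auxin. It stood at 2.69 TPM at 60 min and 1.29 TPM at 120 min without auxin, so this inhibitor was highest without auxin at the same time as Ccne1. Cdc25a, the phosphatase that activates Cdk2, stood at 4.58 TPM in mitosis, 20.0 TPM at 60 min and 4.73 TPM in asynchronous cells. In this group 5 of 6 members that passed the limit were 2-fold above mitosis at 60 minutes (50.8% of all genes), Ccnd3 being the exception.

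The transcription factors had the lowest median of the 7 role groups at 60 minutes. E2f1, an activator of S phase genes, stood at 4.01 TPM in mitosis, 10.6 TPM at 60 min and 6.12 TPM at 120 min. E2f2, a close relative, had 2.25 TPM in mitosis and 2.26, 2.33, 2.24, 3.31, 4.28, 4.92 and 4.34 TPM after release. Mybl2, which with the MuvB complex activates genes of S and G2, had 16.6 TPM in mitosis and 16.9, 17.0, 17.1, 19.0, 23.7, 27.7 and 28.4 TPM after release. E2f1 was therefore past 2-fold at 60 minutes, whereas E2f2 and Mybl2 were still at their mitotic level at 40 minutes and were highest at 90 and 120 minutes. The group's median difference from mitosis at 60 minutes was 0.70, below the 1.01 of all genes.

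All 9 licensing genes were 2-fold above mitosis at 60 minutes without auxin (50.8% of all genes), and each was highest at that time (45.6%). With centred groups their differences from mitosis at 60 minutes ran from -0.01 for Mcm3 to 1.45 for Cdt1. Orc1, the cell-cycle regulated subunit of the origin recognition complex, stood at 6.13 TPM in mitosis, 28.2 TPM at 60 min and 15.5 TPM at 120 min. Cdc6, the loader it recruits, stood at 1.85, 11.9 and 6.59 TPM. Cdt1, which brings the helicase ring and is destroyed once S phase starts, stood at 3.14, 23.3 and 16.8 TPM. Cdt1 and Cdc6 were past 2-fold at 40 minutes, Orc1 at 50 minutes.

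The 6 subunits of the ring, which act in equal number, did not have equal RNA levels or equal timing. In mitosis they ranged from 2.61 TPM for Mcm4 to 11.4 TPM for Mcm5, and at 60 minutes from 10 TPM for Mcm6 to 47.8 TPM for Mcm5. Mcm4 had the largest ratio of the 60 minute to the mitotic level at 6.25, followed by Mcm7 at 5.50, Mcm5 at 4.18, Mcm6 at 3.69, Mcm2 at 2.81 and Mcm3 at 2.36. Mcm7 stood at 4.96 TPM in mitosis and at 6.31, 7.67, 15.9, 24.0, 27.3, 24.8 and 23.6 TPM after release, so it was early and stayed high. Mcm4 had the opposite end of the course, with 16.3 TPM at 60 min and 6.49 TPM at 120 min. From 60 to 120 minutes the difference was -1.21 for Mcm4 and -0.20 for Mcm7, the extremes of the 6.

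The promoter windows of the members were searched for the E2F word, the DNA sequence that E2F factors are known to bind. Windows of 250 bases before to 50 after the start were found for 30 of 35 members in the RefSeq table of GRCm38.p6, the assembly of mm10. The words were TTTCCCGC, TTTCGCGC, TTTGCCGC and TTTGGCGC on both strands, and they can overlap each other. A word was found in 12 of 30 members, against 5.27% of 7266 genes of at least 1 TPM and 2.6% of 27025 genes of the promoter table. Among licensing genes 7 of 8 held a word (Orc1, Cdc6, Cdt1, Mcm3, Mcm5, Mcm6 and Mcm7, with Mcm2 the exception and no window for Mcm4), and among the other roles 5 of 22 (Cdc25a, Clspn, E2f2, Pola1 and Uhrf1).

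The stretch around the first match from the 5′ end of the window is shown for each of the 12, on the gene's strand, so that the words can be compared; capitals mark the word or the run of overlapping words, which reads GCG first where it lies on the other strand.
Orc1: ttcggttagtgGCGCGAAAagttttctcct
Cdc6: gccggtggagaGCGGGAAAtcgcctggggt
Cdt1: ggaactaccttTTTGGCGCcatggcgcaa
Mcm3: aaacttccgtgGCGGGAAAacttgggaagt
Mcm5: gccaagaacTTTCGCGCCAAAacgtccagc
Mcm6: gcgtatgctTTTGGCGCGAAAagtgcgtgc
Mcm7: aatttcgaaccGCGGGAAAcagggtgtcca
Cdc25a: ggtgaattccgTTTGGCGCcaactaggaaa
Clspn: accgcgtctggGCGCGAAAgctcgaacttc
E2f2: gcggcatatagTTTGGCGCtaa
Pola1: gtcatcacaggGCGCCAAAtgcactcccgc
Uhrf1: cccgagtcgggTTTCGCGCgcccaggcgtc

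These stretches lie at chr4:108579416-108579445 (plus strand) for Orc1, chr11:98908002-98908031 (plus) for Cdc6, chr8:122568036-122568064 (plus) for Cdt1 and chr1:20820275-20820304 (minus) for Mcm3. Those of Mcm5, Mcm6 and Mcm7 lie at chr8:75109347-75109376 (plus), chr1:128359795-128359824 (minus) and chr5:138172030-138172059 (minus). The others lie at chr9:109875501-109875530 (plus) for Cdc25a, chr4:126556990-126557019 (plus) for Clspn, chr4:136172302-136172323 (plus) for E2f2, chrX:93632275-93632304 (minus) for Pola1 and chr17:56304117-56304146 (plus) for Uhrf1. Counted from the annotated start of its own window, the first base of the match was at -27 in Orc1, -67 in Cdc25a, -110 in Mcm6, -138 in Cdc6 and in Pola1, -153 in Mcm5, -165 in Mcm7 and -185 in Uhrf1, and after the start in Mcm3, Clspn, Cdt1 and E2f2. Some members have more than 1 start. The word of Uhrf1 was in the window chr17:56304063-56304362, not in chr17:56303087-56303386. The Orc1 window, chr4:108579204-108579503, lies inside the gene, whose first annotated base is 108575705. Mcm5 and Mcm6 each held words on both strands that overlap into a run of 12 bases.

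Up to 200 bases before the start are shown for members with words there and no annotated gene over the part that holds them. Mcm5 and Mcm6 met this rule, and each stretch ends before the nearest annotated gene. The stretch of Mcm5 is chr8:75109309-75109467 on the plus strand, and that of Mcm6 is chr1:128359706-128359905 on the minus strand, which holds a further word nearer the start.
Mcm5: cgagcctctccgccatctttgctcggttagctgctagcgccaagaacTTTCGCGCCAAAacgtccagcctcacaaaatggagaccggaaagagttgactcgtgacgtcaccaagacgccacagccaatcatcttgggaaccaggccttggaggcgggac
Mcm6: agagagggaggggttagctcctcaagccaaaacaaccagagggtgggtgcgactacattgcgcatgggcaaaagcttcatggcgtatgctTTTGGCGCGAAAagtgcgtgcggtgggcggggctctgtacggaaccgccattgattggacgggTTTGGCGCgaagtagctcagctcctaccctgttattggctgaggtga

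Members with and without the word had close medians. The median difference from mitosis was 0.57 at 40 minutes and 1.94 at 60 minutes over the 12 members with a word, and 0.54 and 1.73 over 18 members without one. The ranges overlapped at both times, from -0.28 to 1.5 and from -0.06 to 1.88 at 40 minutes. The word CCAAT, bound by the factor NF-Y, was found in 20 of 30 members, against 44.1% of genes of at least 1 TPM. A match describes the letters of these windows and does not show binding.

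Helicase activators were highest at 60 minutes without auxin, as the licensing genes were. Gins2, a subunit of GINS, stood at 1.29 TPM in mitosis and at 1.99, 2.50, 5.01, 9.70, 13.9, 10.8 and 6.44 TPM after release without auxin, with 2.54 TPM in asynchronous cells. Cdc45 stood at 2.54 TPM in mitosis, 3.60 TPM at 40 min, 12.4 TPM at 60 min and 7.75 TPM at 120 min. The 60 minute level was 10.8 times the mitotic level for Gins2 and 4.87 times for Cdc45, and the later start of Cdc45 shows at 40 minutes, where its difference was 0.38 and that of Gins2 1.39.

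Genes of the replication fork were spread from the earliest to the latest members. Pcna, the sliding clamp of the polymerases, reached the highest level of any member, though Mcm5 was higher at 90 minutes in both arms: it stood at 17.3 TPM in mitosis, 25.2 TPM at 30 min, 49.6 TPM at 40 min, 70.1 TPM at 50 min and 29.0 TPM at 120 min. It was the only member past the midpoint between its mitotic and its highest level at 40 minutes, in both arms. Fen1, the nuclease that trims Okazaki fragments, stood at 2.12 TPM in mitosis, 5.52 TPM at 40 min and 11.5 TPM at 60 min. Rfc4, a subunit of the clamp loader, stood at 2.0, 2.26 and 6.26 TPM, and Clspn, an adaptor of the replication checkpoint, at 1.37, 1.81 and 5.57 TPM.

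Among the genes of the fork, the enzymes that start new strands reached their highest level last without auxin. Prim1, the small primase subunit, stood at 2.10 TPM in mitosis, 2.37 TPM at 40 min, 4.62 TPM at 60 min and 6.03 TPM at 90 min. Pola1, the catalytic subunit of polymerase alpha, which extends the primer, stood at 2.53 TPM in mitosis and at 2.54, 2.0, 1.91, 2.05, 2.68, 4.52 and 6.32 TPM after release. Pola1 was thus below mitosis from 30 to 50 minutes, near it at 60 minutes and highest at 120 minutes. With auxin it stood at 2.57 TPM in mitosis, at 2.42, 2.36, 2.36, 2.13, 2.52, 4.42 and 6.46 TPM after release and at 4.01 TPM in asynchronous cells, against 4.47 TPM there without auxin. The 2 proteins work in 1 complex, yet Prim1 was 2-fold above mitosis before Pola1. On the log2(TPM + 1) scale Prim1 was past 2-fold at 90 minutes, and in plain TPM already at 60 minutes. Pola1 was past it on either scale not before 120 minutes.

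Enzymes that supply nucleotides differed in the same way within a complex. Ribonucleotide reductase makes deoxyribonucleotides from a large subunit, Rrm1, and a small one, Rrm2, whose supply limits the enzyme. Rrm2 stood at 3.63 TPM in mitosis and at 5.02, 5.71, 14.0, 26.9, 27.0, 20.5 and 19.7 TPM after release, with 8.30 TPM in asynchronous cells. Rrm1 stood at 0.896 TPM in mitosis, 1.68 TPM at 40 min, 4.81 TPM at 60 min and 5.25 TPM at 90 min, so Rrm2 had the higher level at all 9 stages and was past 2-fold earlier. Tyms, which makes thymidylate, stood at 1.56 TPM in mitosis and was level from 60 to 120 minutes, at 7.38, 7.42 and 7.38 TPM. Ung, which removes uracil from DNA, stood at 2.70 TPM in mitosis and at 3.92, 4.83, 9.17, 18.2, 23.4, 20.6 and 14.9 TPM after release. The 4 genes of this group were all at least 2-fold above mitosis at 120 minutes (33.1% of all genes), with a group median of 1.91, against 0.81 over all genes.

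Slbp had the largest difference from mitosis of all members at 20, 40, 50 and 60 minutes without auxin. It binds the stem-loop of replication-dependent histone transcripts and is needed for their processing. It stood at 2.01 TPM in mitosis, 4.03 TPM at 20 min, 3.72 TPM at 30 min, 10.1 TPM at 40 min, 22.9 TPM at 50 min, 24.4 TPM at 60 min, 11.3 TPM at 90 min and 6.98 TPM at 120 min, with 3.55 TPM in asynchronous cells. Its level at 60 minutes was 12.1 times that of mitosis, and its difference from 60 to 120 minutes, -1.67, was the lowest of the members.

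Chromatin assembly factors and Uhrf1 lagged behind it. Chaf1a and Chaf1b are subunits of CAF-1, which places histones on new DNA; Chaf1a stood at 5.31 TPM in mitosis and 13.2 TPM at 90 min, and Chaf1b at 1.45 and 13.5 TPM. The 2 subunits therefore had like levels at 90 minutes from unlike levels in mitosis. Uhrf1, which guides maintenance DNA methylation to hemimethylated sites, stood at 6.14 TPM in mitosis and at 6.75, 7.76, 9.70, 17.3, 27.2, 29.4 and 21.6 TPM after release. Chaf1a, Chaf1b and Uhrf1 were highest at 90 minutes in both arms, Slbp at 60 minutes.

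**Figure D3:**
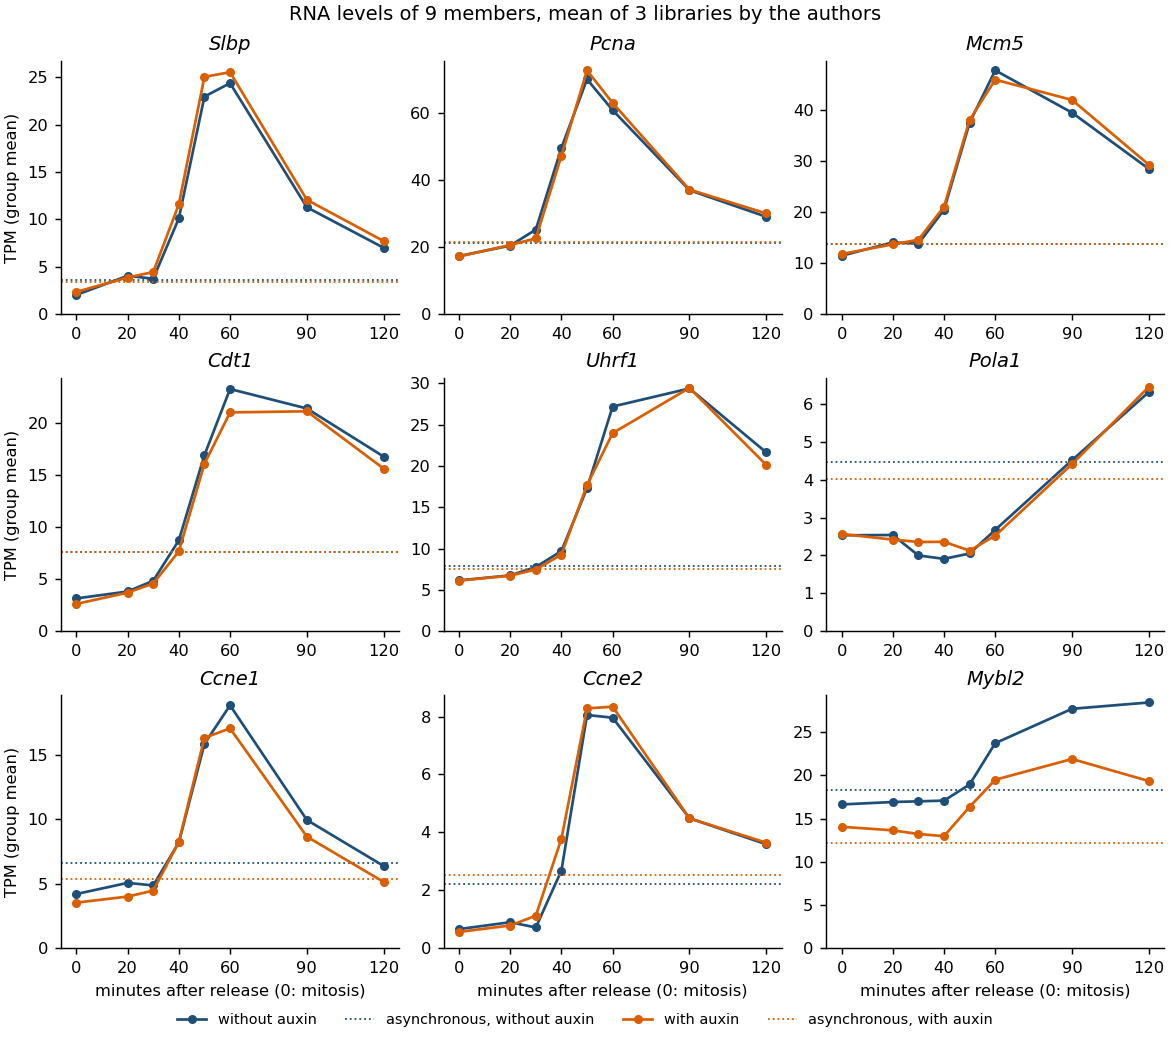
RNA level in TPM (authors' mean of 3 libraries) of 9 members by minutes after release, with mitosis at 0, without auxin in blue and with auxin in orange; dotted lines are asynchronous cells. Slbp and Pcna peak at 50 to 60 minutes and Uhrf1 at 90 minutes, Pola1 is highest at 120 minutes, and Mybl2 is lower with auxin at every stage.

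By the time of the highest level without auxin, 2 members peaked at 50 min (Pcna and Ccne2), 22 at 60 min, 8 at 90 min (Ccnd3, E2f2, Prim1, Rrm1, Tyms, Chaf1a, Chaf1b and Uhrf1) and 2 at 120 min (Pola1 and Mybl2). For the same 4 times, the shares of all genes were 6.79%, 45.6%, 23.6% and 22.8%. With auxin the members highest at these 4 times were 3 (7.26% of all genes), 18 (36.8%), 10 (30.3%) and 3 (24.5%). Without auxin the 22 members highest at 60 minutes became 9 (12.8% of all genes) with centred groups and 8 (14.4%) with quantile normalization. The median difference from 60 to 120 minutes was -0.61 over members and -0.17 over all genes, and 18 of 34 members were at least 1.5-fold lower at 120 than at 60 minutes, against 20.2% of all genes. With centred groups these became 8 of 34 members and 10.5% of all genes. With auxin 14 of 34 members were 1.5-fold lower, against 15.9% of all genes.

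By 50 minutes 28 of 34 members had passed the midpoint between mitotic and highest level in each arm, against 51.8% of 8891 genes without auxin and 53.5% with it; these genes are those that exceeded their mitotic level after release in both arms. Of the 34 members, 31 first passed it at the same time without and with auxin (81.5% of those genes). The time of the highest level was the same in both arms for 23 members (78.6% of all genes) and differed for 11, of which 7 were later with auxin and 4 earlier. For most of these 11 the 2 times were neighbours with close levels, as for Cdt1, at 21.0 TPM at 60 min and 21.1 TPM at 90 min with auxin.

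Timing among the members went with the span of the gene, the distance from its first to its last annotated base in RefSeq on GRCm38.p6, which ran from 3.9 kb for Pcna to 328 kb for Pola1 with a median of 15.8 kb. Across the 34 members the log10 span and the difference from mitosis at 40 minutes without auxin had a Pearson r of -0.75 and a Spearman rho of -0.78, and without Pola1 and Ccnd3, which have the longest spans, -0.71 and -0.73. Over 8941 genes with a span the values were -0.55 and -0.60. For the difference from 60 to 120 minutes the members gave 0.58 and 0.46, and 0.35 and 0.37 without the 2 longest, against 0.26 and 0.27 over the 8941 genes. With auxin the values at 40 minutes were -0.66 and -0.69 over members, and -0.60 and -0.63 without the 2 longest. Those from 60 to 120 minutes were 0.58 and 0.49, and 0.37 and 0.41 without them. Over the 8941 genes with auxin they were -0.49 and -0.54 at 40 minutes, and 0.30 and 0.31 from 60 to 120 minutes. All points of a measure share the same 2 group columns, and genes are not replicates, so these values describe this table.

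**Figure D4:**
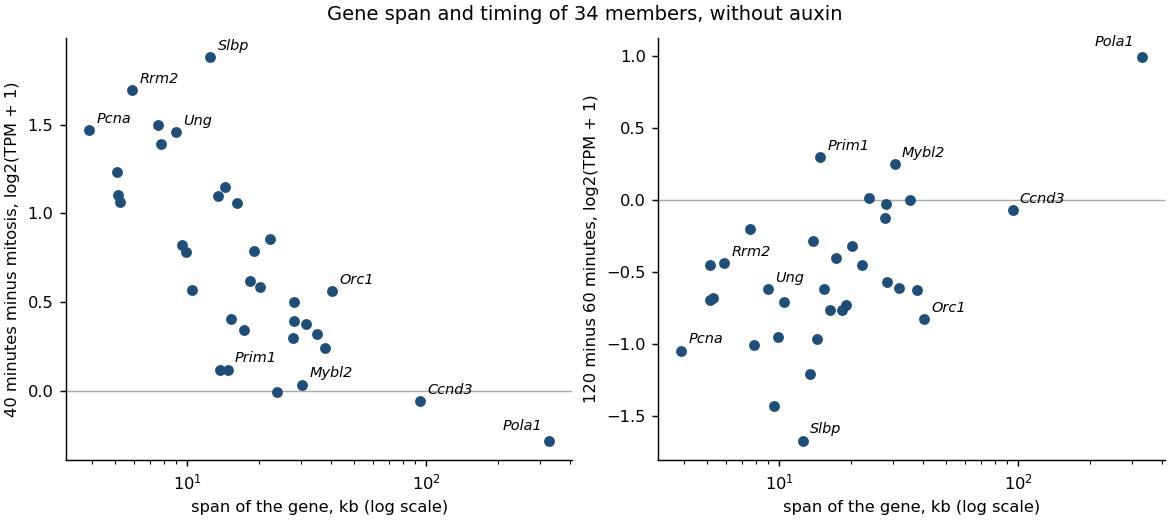
Span of the gene in kb (log axis) against the difference at 40 minutes from mitosis (left) and the difference from 60 to 120 minutes (right), in log2(TPM + 1), for 34 members without auxin; each point is a gene. Short genes such as Pcna and Rrm2 are high at 40 minutes, and Pola1, with 328 kb, is the lowest at 40 minutes and the highest on the right.

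TPM values of most members were higher after release than in asynchronous cells, as were those of most genes. The TPM sum described above was 24769 in asynchronous cells and 49059 at 60 minutes, both without auxin. The highest level after release was above the asynchronous level for 33 of 34 members (94.8% of all genes) and at least 2-fold above it for 28 of 34 (59.3% of all genes), with ratios of TPM from 0.663 for Ccnd3 to 6.86 for Slbp and a median of 3.05. At 120 minutes 31 of 34 members were still above it (89.8% of all genes), the others being Ccnd1, Ccnd3 and Ccne1. In asynchronous cells the TPM was a median of 1.49 times that in mitosis, from 0.984 for Chaf1a to 4.87 for Ccnd1. This ratio was past 2 in further members, among them Ccne2 (3.34), Rrm1 (2.59) and Ccnd3 (2.18). On the log2(TPM + 1) scale 4 of 34 members (Ccnd1, Cdt1, Rrm2 and Chaf1b) were 2-fold above mitosis, against 2.82% of all genes. Centring left 0 of 34 past 2-fold, against 0.845% of all genes, and a pseudocount of 0.1 gave 8 of 34, against 18.5%.

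Differences with auxin were small for most G1/S genes. On the log2(TPM + 1) scale their mean over the release times was largest in Mybl2 and Mcm7. The difference averaged over the 7 release times had a median of 0.02 over the 34 members and of 0.02 over all genes, and ran from -0.33 for Mybl2 to 0.10 for Slbp. By stage, the members lower with auxin and the share of all genes were 23 (71%) in asynchronous cells, 22 (46.2%) in mitosis, and 30 (69%), 16 (29.6%), 16 (28.3%), 17 (48.9%), 28 (80.5%), 10 (36.5%) and 11 (33.8%) at the release times. Both shares were high at 20 and 60 minutes, when most genes of the table were lower with auxin. On average 15 of 34 members were lower with auxin, against 39.2% of all genes, and 0 of 34 were 1.5-fold lower, against 0.0667%. At every release time 6 of 34 members were lower (Mybl2, Mcm7, E2f2, Ccnd3, Rrm2 and Cdt1), against 5.33% of all genes, and 0 of 34 were higher, against 3.88%. Centring or quantile normalization took Cdt1 out of the 6. The order by size rests on the pseudocount, which weighs on low genes. With a pseudocount of 0.1 the mean difference was largest in Ccnd3 at -0.37, with Mybl2 at -0.35. Ccnd1 at -0.25 and E2f2 at -0.21 then lay beyond Mcm7 at -0.20.

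The authors' deposited table called 6 of the 35 members lower (Ccnd1, Ccne1, E2f2, Mybl2, Mcm7 and Uhrf1), against 7.26% of its genes, and 2 of them higher (Ccnd2 and Ccne2), against 6.74%. No source used here gives the test, threshold and stages behind these calls. The calls were made on these same samples and are no independent evidence of direction.

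Mybl2 had the largest mean difference of the members on the log2(TPM + 1) scale. With auxin it stood at 12.2 TPM in asynchronous cells, 14.1 TPM in mitosis and 13.7, 13.2, 13, 16.4, 19.5, 21.9 and 19.4 TPM after release, below the arm without auxin at all 9 stages. The difference was -0.23 already in mitosis, -0.56 in asynchronous cells and -0.53 at 120 minutes. E2f2 was likewise lower at all 9 stages, with 1.73 TPM in asynchronous cells, 1.75 TPM in mitosis and 1.79, 1.84, 1.94, 2.90, 3.69, 4.79 and 3.72 TPM after release. Its largest difference was -0.40 in asynchronous cells, and at 90 minutes it was -0.03.

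Mcm7 was the single ring subunit lower with auxin at every release time. With auxin it stood at 8.05 TPM in asynchronous cells, 4.81 TPM in mitosis and 5.81, 6.56, 12.5, 20.9, 24.3, 22.8 and 19.8 TPM after release, lower at all 9 stages, and the difference was -0.04 in mitosis and -0.32 at 40 minutes. The mean differences over release of the other 5 subunits lay from -0.01 for Mcm3 to 0.05 for Mcm4, and that of Mcm5, 0.02, turned to -0.004 under quantile normalization.

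The cyclins had opposite calls within a family. With auxin Ccne1 stood at 5.37 TPM in asynchronous cells, 3.54 TPM in mitosis and 4.01, 4.47, 8.23, 16.3, 17.0, 8.64 and 5.14 TPM after release, lower than without auxin at 5 of 7 times and not at 40 and 50 minutes. Ccne2 stood at 2.54 TPM in asynchronous cells, 0.568 TPM in mitosis and 0.787, 1.13, 3.78, 8.28, 8.34, 4.49 and 3.64 TPM after release, higher at 5 of 7 times with its largest differences at 30 and 40 minutes (0.31 and 0.38). At those 2 times all genes leaned the same way, 29.6% and 28.3% of them being lower with auxin.

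Ccnd1 with auxin stood at 2.58 TPM in asynchronous cells, 0.512 TPM in mitosis and 0.540, 0.700, 1.29, 3.10, 5.28, 4.93 and 2.38 TPM after release, lower at 6 of 7 times with 90 minutes the exception. Ccnd2, at 0.169 TPM in asynchronous cells and 0.0767 TPM in mitosis with auxin, had 0.0900, 0.0802, 0.195, 0.476, 0.827, 0.536 and 0.314 TPM after release. Its mean after release was 0.300 TPM without and 0.360 TPM with auxin, both below the limit of 1 TPM. Ccnd3, which the authors' deposited table did not call, was lower at all 9 stages, with 0.851 TPM in asynchronous cells, 0.400 TPM in mitosis and 0.354, 0.376, 0.403, 0.466, 0.487, 0.464 and 0.389 TPM after release. Its mean over the release times was 0.578 TPM without and 0.420 TPM with auxin.

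Uhrf1 was called lower in the authors' deposited table, yet its mean was 17.1 TPM without and 16.4 TPM with auxin. With auxin it stood at 7.56 TPM in asynchronous cells, 6.11 TPM in mitosis and 6.72, 7.46, 9.27, 17.7, 24.0, 29.4 and 20.1 TPM after release, with its largest difference, -0.17, at 60 minutes, where 80.5% of all genes were lower with auxin. Rrm2, which that table did not call, was lower at all 9 stages, with means after release of 17.0 and 15.4 TPM, and with auxin it stood at 7.27 TPM in asynchronous cells, 3.62 TPM in mitosis and 4.54, 5.32, 12, 24.3, 23.7, 19.9 and 17.9 TPM after release. Cdt1, lower at all 9 stages, had means of 13.7 and 12.8 TPM. Slbp, at the other end, was higher at 6 of 7 times, with 3.42 TPM in asynchronous cells, 2.33 TPM in mitosis and 3.85, 4.43, 11.6, 25.0, 25.5, 12.1 and 7.69 TPM after release with auxin.

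Gins2 and Ung, with large differences from mitosis, averaged -0.07 and -0.10 with auxin over the release times, and at 40 minutes -0.26 and -0.24. Gins2 with auxin stood at 2.62 TPM in asynchronous cells, 1.20 TPM in mitosis and 1.84, 2.39, 4.01, 9.68, 12.4, 10.9 and 6.78 TPM after release. Ung stood at 4.03 TPM in asynchronous cells, 2.53 TPM in mitosis and 3.66, 4.38, 7.62, 17.6, 21.1, 21.6 and 13.4 TPM after release, lower than without auxin at 6 of 7 times. Over release, Pcna averaged 41.7 TPM without auxin and 41.9 TPM with it, and Orc1 averaged 15.6 and 15.7 TPM.

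**Figure D5:**
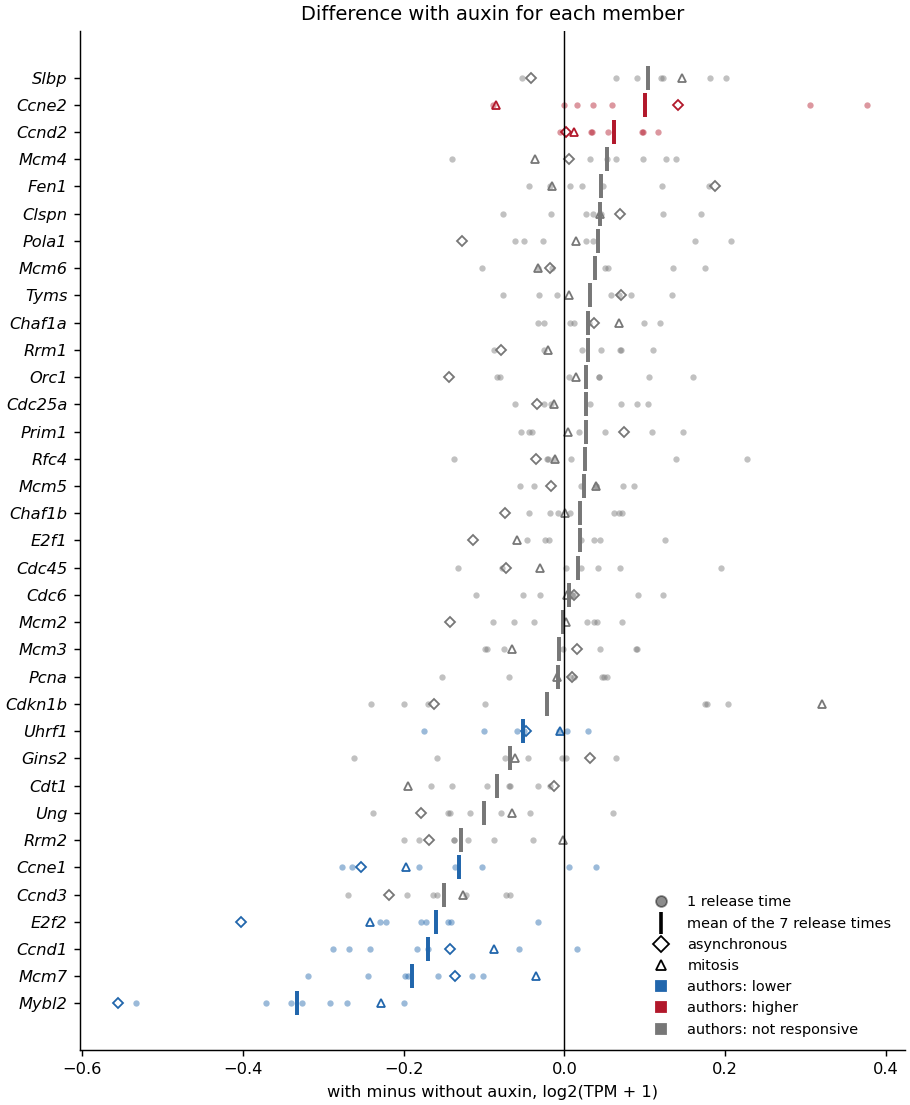
Difference with minus without auxin in log2(TPM + 1) for each of the 35 members, ordered by the mean of the 7 release times (vertical ticks); dots are single release times, diamonds asynchronous cells and triangles mitosis, coloured by the call in the authors' deposited table. Mybl2 lies at -0.33 and most members lie near 0, with dots on both sides.

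Nr5a2 peaks lay within the gene or 10 kb of it for 26 of 35 members, against 72% of 8941 genes of at least 1 TPM with a position, so the members are near the background. Within the gene alone it was 18 of 35 (48.1% of all genes), and within 50 kb 34 of 35 (92.3%). The authors deposited 35266 peaks in classes coded L, eB, dB and nB, whose meaning no source used here gives; 71 peaks lay near members. Class L was near 18 members (54.4% of all genes), eB near 12 (28.1%), dB near 10 (19.1%) and nB near 6 (13.9%). All 8 members called in the authors' deposited table had a peak, as did 18 of the 27 not called. Over all genes of at least 1 TPM a peak was near 92.5% of those called lower, 62.5% of those called higher and 70.6% of those not called.

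Among members called lower, Mybl2 had 8 peaks, E2f2 and Mcm7 had 5 each, and Ccnd1, Ccne1 and Uhrf1 had 1 each. The peak of class dB upstream of Mybl2 lies at chr2:163051448-163053432, with its centre 2.19 kb before the start, and a further dB peak inside the gene at chr2:163074931-163075963. That of Ccne1, of class eB, lies at chr7:38107922-38108679, with its centre 0.81 kb before the start. That of Uhrf1, of class L, lies at chr17:56301728-56302714, 1.12 kb before the nearest annotated start, which is not the start of the window with the E2F word. Mcm7 had an L peak inside the gene at chr5:138169730-138170329. The count of peaks did not follow the call alone: Ccnd3, not called, had 13 peaks over a span of 94.6 kb, and Chaf1b, not called, had 6.

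No peak was near Mcm3, Mcm4, Mcm5, Gins2, Prim1, Pcna, Fen1, Rrm2 or Slbp. Peaks overlapped the promoter window of 4 of 30 members, against 14.4% of genes of at least 1 TPM. These were an L peak for Tyms, eB peaks for Cdc45 (chr16:18810920-18812046) and Rfc4 (chr16:23127880-23128364), and a dB peak for Chaf1b (chr16:93882922-93883705). The core word of the receptors' site, searched as AAGGTCA and AAGGCCA on both strands, was not in these 4 windows and was in 4 of 30 member windows (Ccnd3, Fen1, Cdc25a and Pola1), against 9.37% of genes of at least 1 TPM. Peaks can hold such a word outside the window searched.

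Other genes of the pathway took a slower and flatter course. Of 74 further genes listed for this work (other E2F and retinoblastoma proteins, kinases, remaining subunits of the origin complex, GINS, polymerases, clamp loader and RPA, and repair genes of S phase) 71 were in the table, all of at least 1 TPM. Without auxin their median difference from mitosis at 40, 60 and 120 minutes was 0.25, 1.36 and 1.12. At these times 8, 48 and 46 of the 71 were 2-fold above mitosis, against 5.73%, 50.8% and 33.1% of all genes. High among them at 60 minutes were E2f7, a repressor of the E2F family (0.93 TPM in mitosis and 9.52 TPM at 60 min), Cdk2, the partner of cyclin E (1.20 and 10.9 TPM), Fbxo5, an inhibitor of the anaphase-promoting complex (3.53 and 23.0 TPM), and Orc6 (5.05 and 29.8 TPM). Low were Cdk6, a partner of D cyclins (1.20 and 1.03 TPM), and the retinoblastoma relative Rbl1 (0.60 and 0.64 TPM). These 6 were picked after their values were seen, as the ends of the list.

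Of the 71 genes, the authors' deposited table called 1 lower, against 7.26% of its genes, and 4 higher, against 6.74%. The 1 called lower was Pole4, a small subunit of polymerase epsilon (mean after release 4.15 TPM without and 3.63 TPM with auxin). The 4 called higher were E2f3 (10.1 and 11.0 TPM), Rb1 (0.82 and 0.84 TPM) and the inhibitors Cdkn1c (2.51 and 2.55 TPM) and Cdkn2c (0.48 and 0.51 TPM). E2f3, called higher, and E2f2, called lower, are both activators of the E2F family.

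Mitotic genes, the set most like the members in cell-cycle control, had a lower median at 60 minutes without auxin, 1.37 over 36 genes. There 29 of 36 were 2-fold above mitosis, against 50.8% of all genes. At 120 minutes the mitotic median was 0.69, with 6 of 36 past 2-fold, against 33.1% of all genes. The members had 1.20 and 23 of 34 at that time. In asynchronous cells the order was the reverse, with a median of 0.79 for mitotic genes and 0.44 for members. These differences between lists were not tested.

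Genes outside the lists shared the members' course closely. By Pearson r over the 18 groups with the mean standardized profile of the 34 members, the closest were Ddx47, an RNA helicase of ribosome synthesis, Bag6 and Bag1, cochaperones, Smu1, a splicing factor, and Pdap1, with r from 0.996 to 0.997. Ddx47 stood at 0.534 TPM in mitosis and 2.46 TPM at 60 min, and Bag6 at 2.10 and 9.69 TPM. The 18 points are group means that share the same release series, and likeness of this kind says nothing of shared control.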

How the data were processed

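RNA-seq libraries were depleted of ribosomal RNA, stranded and paired-end, per the labels' protocols. Expression was deposited as TPM, with 1 column per group and 18 columns, and all 246530 nonzero values, times 3, came out whole to 9 decimals, which fits means of 3 libraries. The submitters' processing notes name STAR, RSEM, DESeq2, Bowtie2, MACS2 and the build mm10 but no version; filters and the gene part quantified were not stated. The authors' calls and the Nr5a2 peaks were used as deposited.

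From TPM, log2(TPM + 1) was taken per group and subtracted between stages or arms; genes of at least 1 TPM in at least 1 group were counted. Folds of 2 from mitosis, 1.5 between arms and 1.5 from 60 to 120 minutes were used. The planned limma tests could not be run on group means. The counting functions were tested on simulated data. Positions were found for 8941 of the 8999 genes in RefSeq on GRCm38.p6. Python 3.11.15, pandas 2.3.3, numpy 2.4.6 and scipy 1.17.1 were used.

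The members and the lists were chosen with earlier results of these data known. Some members are given in mitosis and at every release time of both arms. These are the members with the 4 largest and 2 smallest differences at 60 minutes without auxin, those called by the authors and those highest at 120 minutes without auxin. The other members are given at fewer stages. The midpoint times and the split by E2F word were chosen after values were seen. Whether the 3 libraries per group are separate cultures is not stated.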

Additional observations from a re-analysis of the deposited data

How the results depend on the processing

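No paired analysis was possible because the deposited columns are means over the replicates, and for the same reason no replicate could be left out. Group medians over all genes differ by up to 1.1 on the log2 scale, and centring each group on its median lowered the counts of members 2-fold above mitosis without auxin to 6, 12, 11, 7 and 5 at 40, 50, 60, 90 and 120 minutes (3.23, 6.21, 4.84, 2.29 and 2.43% of all genes) and to 0 (0.845%) in asynchronous cells, and to 11 (5%) at 60 minutes with auxin. It moved the median at 60 minutes to 0.81, the members 1.5-fold lower at 120 than at 60 minutes to 8, those highest at 60 minutes to 9 and the median auxin difference to 0.012. Quantile normalization gave 7, 10, 10, 7, 5 and 1 for the same stages without auxin (3.66, 5.63, 4.32, 2.17, 2.52 and 1.21% of all genes), 9 (4.42%) at 60 minutes with auxin, medians of 0.70 at 60 minutes and -0.33 from 60 to 120 minutes, 8 members 1.5-fold lower, 8 highest at 60 minutes and an auxin median of 0.0062. A pseudocount of 0.1 gave 8 members (18.5% of all genes) 2-fold above mitosis in asynchronous cells. The auxin median became 0.0096 without 30 minutes, 0.0068 without 40 minutes, 0.0073 without 90 minutes and 0.0090 without 120 minutes. In the last 100 bases before the start an E2F word was found in 3 of 30 members, against 1.94% of genes of at least 1 TPM. The other alternatives, among them the limits of 0 and 5 TPM and the peak distances, kept the direction and stayed within 1.5 times. Fits across libraries, with or without the replicate block, were not run. The depth is unknown, so the precision of low genes such as Ccnd2 and Cdkn1b could not be given.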
